A study of Homo sapiens with 23 samples.

Results

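The cell cycle transcription factors described here were 10 genes, taken by name: the E2F genes E2F1, E2F2, E2F3, E2F4, E2F7 and E2F8, the E2F partner gene TFDP1, MYBL2, FOXM1, and LIN9. All 10 were present among the 61806 genes listed for the first libraries and the 42901 listed for the deep libraries, and all 10 passed the filter on low counts in every comparison. RNA-sequencing was performed on A549, an established human lung adenocarcinoma cell line, with the aim of examining the role of THUMPD3 in proliferation and migration. THUMPD3 is a methyltransferase that places a methyl group on guanosine in tRNA. The series held 23 libraries, of which 17 formed the first set and 6 were sequenced more deeply for splicing.

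The knockdown cells of every group had the genotype label THUMPD3 knockdown and the controls WT, and all were grown in the same medium with foetal bovine serum. In the siRNA experiment, A549 cells were transiently transfected, which gave 3 siTHUMPD3 libraries and 2 siControl libraries. In the shRNA experiments, a doxycycline-inducible lentiviral vector (pLKO-Tet-On) was introduced and transduced cells were selected with puromycin. The hairpin shD3#1 (3 libraries) was compared with sh1Control (3 libraries), and shD3#4 (3 libraries) with sh4Control (3 libraries). The deep set held 3 libraries of shD3#1 and 3 of sh1Control. Their titles carry the same hairpin and replicate numbers as the first shD3#1 and sh1Control libraries. Whether both sets came from the same cultures was not given in the sources used here, so the deep comparison is not taken as independent of the first. The methods call the controls untreated. Whether the sh1Control and sh4Control cells carried the uninduced hairpin, and whether the transduced cells were pools or clones, was not given in the sources used here. The labels call the replicates biological. Since siRNA and shRNA cells were harvested at different times, the kind of knockdown and the time of harvest cannot be told apart.

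E2F proteins bind DNA as dimers with a DP protein, which TFDP1 encodes, and their activity is held back by the retinoblastoma family. E2F1, E2F2 and E2F3 are the activators of genes for DNA replication at the start of S phase. E2F4 is the main repressing E2F of resting cells, where it joins the DREAM complex together with the MuvB core, of which LIN9 is a subunit. E2F7 and E2F8 are atypical repressors that bind DNA without a DP partner. Later in the cycle the MuvB core is released to MYBL2 (B-Myb) and then FOXM1, and the genes of G2 and mitosis are switched on. Several of these genes, among them E2F1, E2F2, MYBL2 and E2F8, are themselves E2F targets.

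E2F sites close to the start of a gene are the element by which this family acts on its own members. The last 80 bases before the start site are therefore shown, on the gene's strand from 5′ to 3′, for the 3 activator genes, for MYBL2 and for the atypical E2F7. The sequences were taken from the RefSeq promoters on GRCh38.p14. Capitals mark an E2F word or an E2F core, as defined in the next paragraph, on either strand.
E2F1 (chr20:33686386-33686465, minus strand): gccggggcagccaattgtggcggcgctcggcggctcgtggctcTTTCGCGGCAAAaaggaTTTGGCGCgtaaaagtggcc
E2F2 (chr1:23531234-23531313, minus strand): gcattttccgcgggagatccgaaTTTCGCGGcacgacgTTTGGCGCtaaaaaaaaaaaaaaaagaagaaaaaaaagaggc
E2F3, first start (chr6:20401799-20401878, plus strand): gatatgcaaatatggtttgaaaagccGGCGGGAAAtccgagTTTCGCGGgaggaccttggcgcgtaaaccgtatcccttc
MYBL2 (chr20:43667034-43667113, plus strand): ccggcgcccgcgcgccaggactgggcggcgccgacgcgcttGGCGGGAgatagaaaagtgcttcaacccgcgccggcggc
E2F7 (chr12:77065570-77065649, minus strand): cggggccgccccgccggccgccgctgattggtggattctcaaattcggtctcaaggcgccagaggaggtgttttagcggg

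Promoters of 8 of the 10 genes were held in the RefSeq table, in 11 windows of 250 bases before to 50 bases after a start, with 2 windows for E2F3 and 3 for LIN9. FOXM1 and E2F8 were not among them. An E2F word was any of TTTCCCGC, TTTCCCGG, TTTCGCGC, TTTCGCGG, TTTGCCGC, TTTGCCGG, TTTGGCGC and TTTGGCGG on either strand, and it lay in 6.19% of all 35116 promoter windows. Among the 8 genes, 4 held it (E2F1, E2F2, E2F3 and TFDP1), and the E2F1 window held 3 words, the first pair of which overlap on opposite strands. The shorter E2F core GGCGGGA, which was added to the search after the promoters had been read and which overlaps a word in E2F3, lay in 15.4% of all windows and in those of 5 genes (E2F1, E2F3, MYBL2, TFDP1 and LIN9). A word was present in 4 of the 11 windows and a core in 6. A word or a core was present in 19.5% of all windows and in 7 of these 11, which belong to 6 of the 8 genes. The remaining pair, E2F4 and E2F7, held neither spelling. The cell cycle homology region, which MuvB binds, was searched as the letters TTTGAA, and besides that as TTCGAA, and besides that as CTTGAA, and a match lay in 24.9% of all windows and in 2 of the 11, 1 each of E2F3 and LIN9. CCAAT, which lay in 34.6% of all windows, was found in 3 of the 11, 1 each of E2F1, E2F3 and E2F7. Both E2F3, whose transcript passed both thresholds in no comparison, and E2F2, which passed them in every comparison, held 2 E2F words. A match is a description of the letters only.

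**Figure D1:**
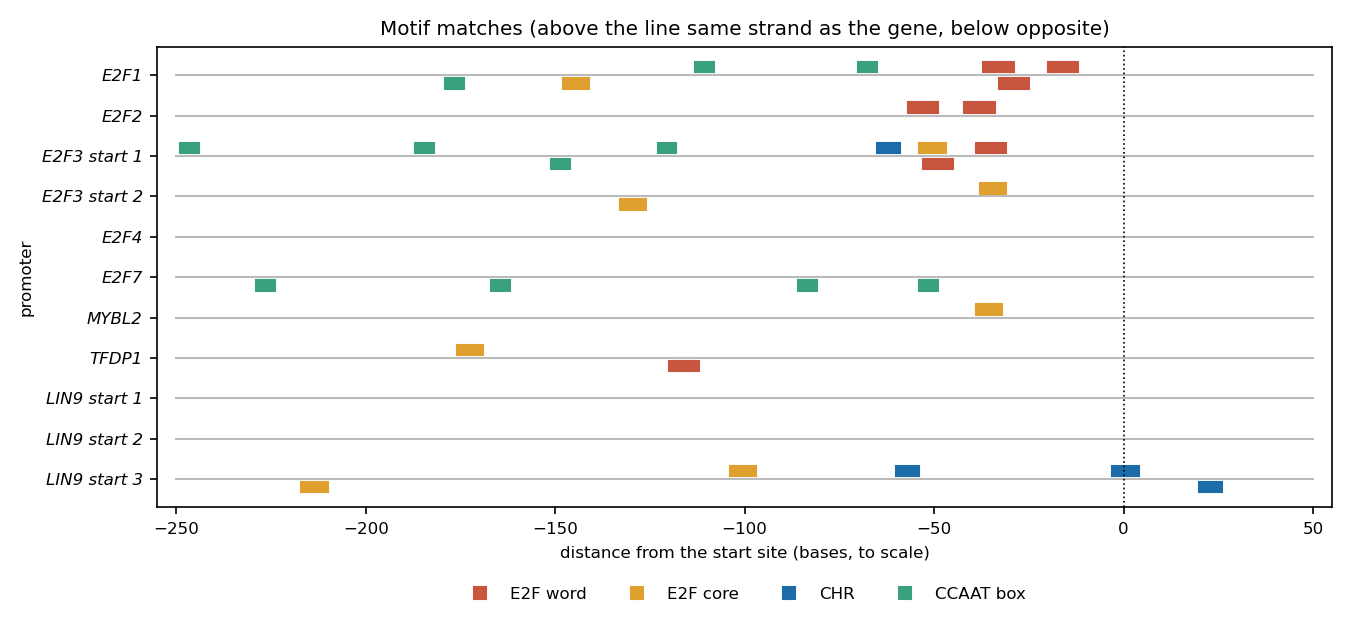
Positions of motif matches in the 11 promoter windows of 8 genes, as bases from the start site (x axis, to scale), with a line for each window. Matches on the gene's strand are drawn above the line and those on the opposite strand below it. The E2F words of E2F1, E2F2 and E2F3 lie within the last 80 bases before the start, and E2F4 and E2F7 hold no word or core.

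Library totals ranged from 9854294 to 22101059 counts in the first set and from 27285889 to 59974740 in the deep set. The mitochondrial gene MT-RNR2 alone held 21.9% to 32.2% of the counts of each first library. The top gene of the deep libraries, COX1, held 3.03% to 3.98%. The shD3#1 libraries included the shallowest of the first set (9854294 to 18210828, against 17575988 to 20234810 in sh1Control). In the deep set, shD3#1 (27285889 to 35458367) also had fewer counts than sh1Control (51101905 to 59974740). Replicates of a group differed by more than sampling noise in every pair, and siTHUMPD3 replicate 3 stood apart from replicates 1 and 2, with a chi-square per degree of freedom of 26.3 and 29.9 against 3.4 between the others. To a lesser degree, replicate 3 also differed more in shD3#1 (5.69 and 8.05 against 1.73), deep shD3#1 (15 and 11.8 against 4.92) and sh4Control (7.81 and 5.21 against 2.68). In shD3#4, the value was 13.3 between replicates 1 and 2, and it was 9.71 between the 2 siControl libraries. Levels are given as cpm (counts per 1000000) after normalisation, except those of the cell type markers, which were scaled by library total alone. Of 8 lung epithelial and A549 markers, the keratins KRT8 and KRT18 were at or above 1010 cpm in every first library. The others varied more in level there: EPCAM had 2.03 to 21.8 cpm, KRT19 20.1 to 115, CDH1 39.6 to 147 and AKR1C1 142 to 535. ALDH3A1 had 401 to 1340 cpm and AKR1B10 1200 to 2570. The sum of the 8 was 4290 to 8340 cpm in siTHUMPD3 and 6170 to 8210 in siControl. CDKN2A, which is known to be deleted in A549 cells, had 0 counts throughout. Of 9 markers of other cell types, 7 had at most 10 counts in any first library, and CD3E had 0. The summed level of these 9 markers in the first set, where COL1A1 had 44 to 158 counts and COL3A1 3 to 125, was 13.8 to 16.1 cpm in shD3#1 against 4.84 to 6.01 in sh1Control. The same sum was 6.07 to 8.32 cpm in shD3#4 against 3.7 to 6.74 in sh4Control, 5.28 to 7.76 in siTHUMPD3 against 2.81 to 4.36 in siControl, and 121 to 130 in deep shD3#1 against 52.7 to 56.5 in the deep controls, CD68 having 2462 to 3474 counts over all 6 deep libraries. Its part in the results was not tested.

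THUMPD3 itself was measured first, as a check of the labels. Its level fell to 51.3% of control in shD3#1, to 31.4% in shD3#4, to 17.1% in siTHUMPD3 and to 49.6% in deep shD3#1, and no knockdown library reached the level of any control. THUMPD3-AS1 lies opposite 23821 bases of THUMPD3 and had up to 1028 counts in the first set. How reads on the shared bases were counted depends on the strand setting, which was not given.

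Of the 10 genes, 2 to 7 were called lower after THUMPD3 knockdown, depending on the comparison. A gene was called when edgeR's quasi-likelihood test gave a Benjamini-Hochberg adjusted p under 0.05 over all genes tested and its level changed at least 1.5-fold. In shD3#1, 6 genes were called lower, where 14.6% of all 16456 genes tested were. In shD3#4, 5 were called lower, against 4.49% of all 16493 genes. In siTHUMPD3, 7 were called lower, against 9.42% of all 17032 genes. In deep shD3#1, only E2F2 and MYBL2 were called lower, against 14.1% of all 18763 genes, so that this count was near the share of all genes. The median log2 fold change over the 10 genes was -0.75, -0.58, -2.43 and -0.47 in the same order, and that over all genes tested was -0.01, 0.01, 0.03 and -0.02. In bulk RNA, fewer cells in which a gene is on and less RNA per cell cannot be told apart.

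None of the 10 genes was called higher by edgeR or by DESeq2, where 14.5%, 8%, 12.5% and 15% of all genes were called higher in shD3#1, shD3#4, siTHUMPD3 and deep shD3#1. At an unadjusted p under 0.05, 1 gene was higher in shD3#1 and 1 in deep shD3#1 (E2F4 in both), and 0 in shD3#4 and siTHUMPD3. Every knockdown library lay below every control for 7 of the 10 genes in shD3#1 (31.2% of all genes tested), 10 in shD3#4 (24.7%), 8 in siTHUMPD3 (29.5%) and 7 in deep shD3#1 (34%). In shD3#4 all 10 genes were also lower at an adjusted p under 0.05 without the fold threshold, as were 20.8% of all genes. E2F2, E2F8, MYBL2 and FOXM1 were called lower in all 3 first comparisons, and so were 0.805% of the 15656 genes tested in all 3. Of the others, E2F1 and LIN9 were called in 2 of the 3, E2F7 and TFDP1 in 1, and E2F3 and E2F4 in 0. The comparisons of the first set share no control libraries.

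**Figure D2:**
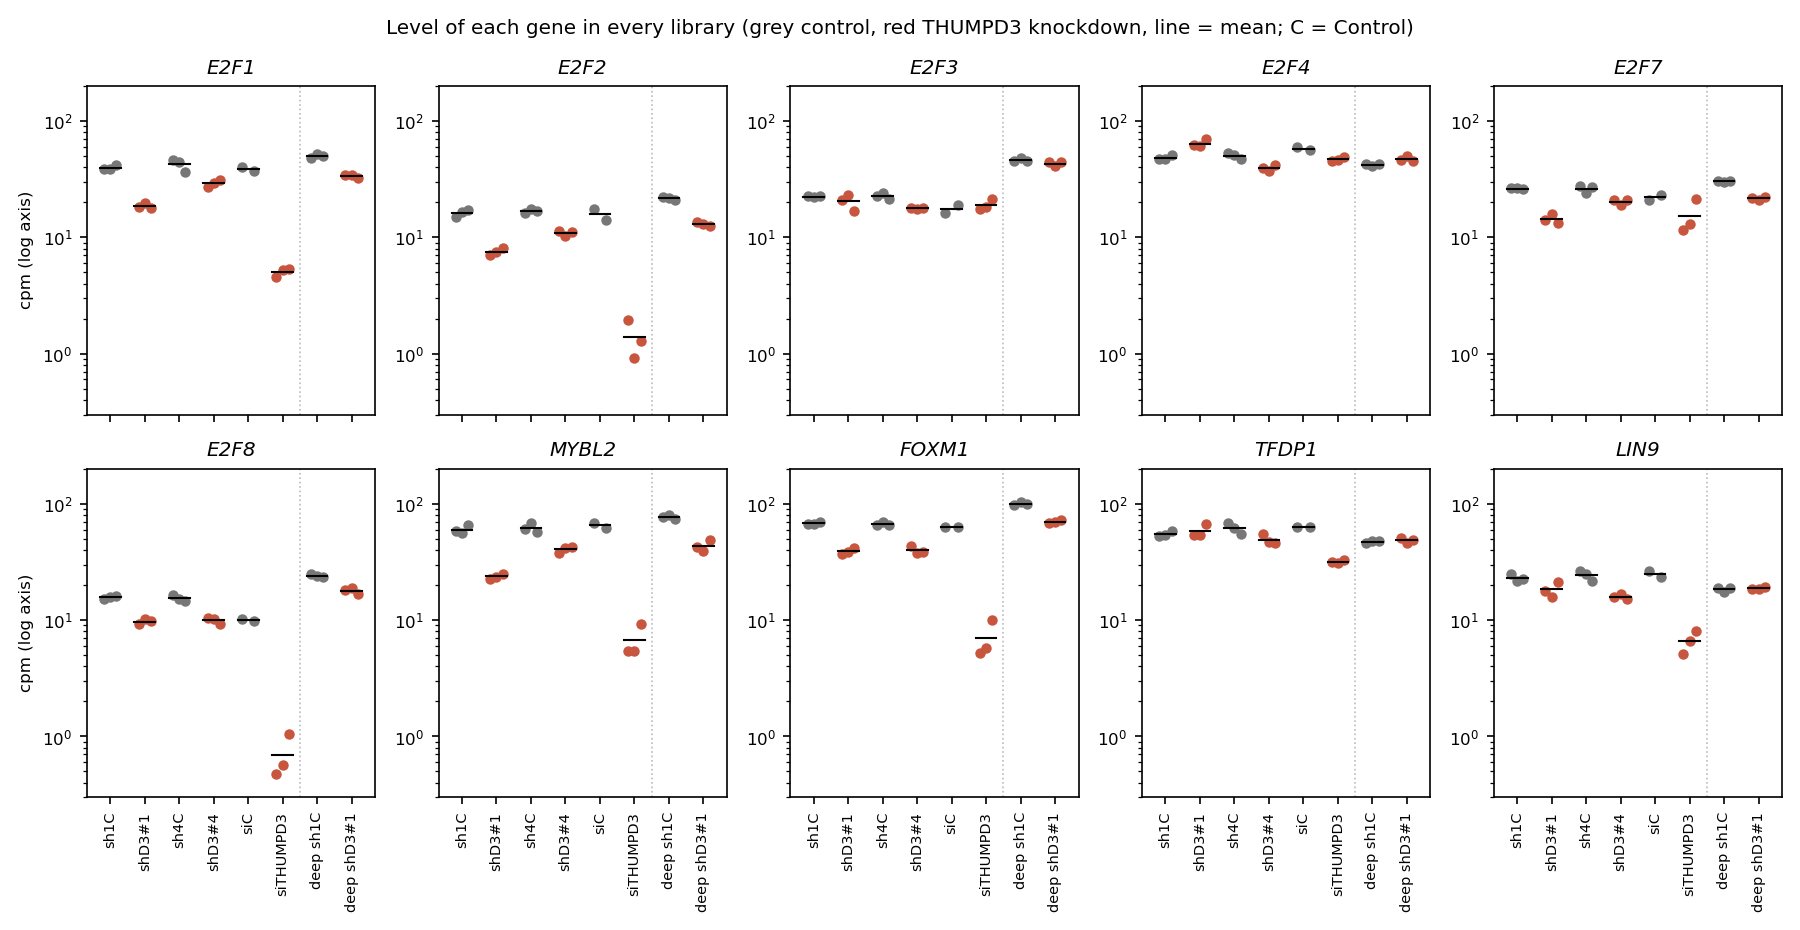
Level of the 10 genes in each of the 23 libraries, as normalised cpm on a log axis, with grey points for control libraries, red points for THUMPD3 knockdown libraries and a line at the mean of each group. The dotted line separates the deep set, which was normalised on its own. E2F1, E2F2, E2F8, MYBL2, FOXM1 and LIN9 reach their lowest levels in siTHUMPD3, while E2F3 and E2F4 stay within 16.2 to 23.9 and 37.0 to 69.6 cpm in the first set.

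The activator E2F1, at chr20:33675477-33686385 on the minus strand (GRCh38), had 38.6, 39 and 41.9 cpm in sh1Control and 18.1, 19.7 and 18 cpm in shD3#1. In siControl it had 40.5 and 37.1 cpm, and in siTHUMPD3 4.53, 5.25 and 5.38 cpm. The groups did not overlap in either experiment, and the siTHUMPD3 libraries kept 13% of the control mean. The log2 fold change was -1.09 ± 0.07 (SE; edgeR's adjusted p = 5.22e-09) in shD3#1 and -2.94 ± 0.12 (6.88e-06) in siTHUMPD3. In sh4Control E2F1 had 46.2, 44.5 and 36.8 cpm and in shD3#4 27.2, 29.1 and 30.9 cpm, with no overlap. Its log2 fold change there was -0.55 ± 0.08 (edgeR's adjusted p = 5.05e-06), short of the fold threshold. It passed that threshold without sh4Control replicate 3 (-0.65) and without shD3#4 replicate 3 (-0.60). Among deep libraries, where the controls had 48.1, 52.2 and 50.1 cpm and shD3#1 34.2, 34.1 and 32.6 cpm, it was also just short of the threshold (-0.57 ± 0.05, edgeR's adjusted p = 2.63e-07). There it passed without deep sh1Control replicate 1 (-0.60) and without deep shD3#1 replicate 1 or 2 (both -0.59).

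E2F2, the activator of lowest control level per kilobase of exon (chr1:23506438-23531233, minus strand), fell in all 4 comparisons. It had 14.8, 16.5 and 17.2 cpm in sh1Control against 7.1, 7.45 and 8.04 in shD3#1. In sh4Control it had 16.3, 17.4 and 16.7 cpm against 11.3, 10.2 and 11.1 in shD3#4. In siControl it had 17.6 and 14.1 cpm against 1.93, 0.914 and 1.29 in siTHUMPD3, the last from 41, 16 and 26 counts. The knockdown libraries were below all controls each time, and those of siTHUMPD3 kept 8.71% of the control mean. The log2 fold changes were -1.11 ± 0.11 (SE; edgeR's adjusted p = 2.35e-07), -0.63 ± 0.09 (2.77e-06) and -3.50 ± 0.27 (7.75e-05). The deep controls had 22.2, 21.8 and 21 cpm of E2F2 and deep shD3#1 13.5, 12.9 and 12.6 cpm, a log2 fold change of -0.74 ± 0.06 (edgeR's adjusted p = 1.24e-07).

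E2F3 (chr6:20401879-20493714, plus strand), the third activator, did not pass both thresholds in any comparison. Its level was 16.8 to 23.9 cpm in the first shRNA libraries of either kind, and in the siRNA experiment 16.2 and 19.1 cpm in siControl against 17.7, 18.2 and 21.3 in siTHUMPD3. The log2 fold change was -0.11 ± 0.10 (SE; edgeR's adjusted p = 0.346) in shD3#1, 0.11 ± 0.14 (0.562) in siTHUMPD3 and -0.10 ± 0.05 (0.141) in deep shD3#1. In siTHUMPD3 it was -0.01 without siControl replicate 1. The lowest shD3#1 library (16.8 cpm) was also the shallowest, and the groups overlapped. In shD3#4 it was lower in every library (17.7, 17.6 and 18 cpm, against 22.7, 23.9 and 21.2), by -0.35 ± 0.08 on the log2 scale (edgeR's adjusted p = 7.93e-04), less than the fold threshold. The genes RN7SL128P, RNU6-141P and E2F3-IT1 overlap E2F3, and none exceeded 24 counts in the first set, where E2F3 had at least 165. Of these, E2F3-IT1 had up to 150 counts in the deep set, where E2F3 had at least 1111.

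E2F4, the repressing E2F (chr16:67192155-67198918, plus strand), differed in direction between the hairpins. It had 47.1, 47 and 51 cpm in sh1Control and 61.9, 60.6 and 69.6 cpm in shD3#1, all above the controls. In sh4Control it had 53, 50.9 and 46.8 cpm and in shD3#4 39.3, 37 and 41.5 cpm, all below the controls. In siControl it had 60 and 55.8 cpm against 45.3, 46 and 49.1 in siTHUMPD3, again below the controls. None of these differences reached the fold threshold: the log2 fold change was 0.40 ± 0.07 (SE; edgeR's adjusted p = 1.97e-04) in shD3#1, -0.35 ± 0.07 (2.00e-04) in shD3#4 and -0.31 ± 0.09 (0.0304) in siTHUMPD3. Its deep value was 0.17 ± 0.05 (edgeR's adjusted p = 0.0143), with 46.7, 50.5 and 45.2 cpm in shD3#1 against 42.6, 41.1 and 42.9 in the controls. Both sets of shD3#1 libraries thus lay above their own controls, though whether the sets share cultures is not known.

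TFDP1 (chr13:113584721-113641473, plus strand), which encodes the DP partner of the E2Fs, was called lower in siTHUMPD3 and in no other comparison. It had 62.8 and 62.8 cpm in siControl and 31.7, 31.1 and 32.8 cpm in siTHUMPD3, which is 50.7% of control (log2 fold change -0.98 ± 0.08 SE, edgeR's adjusted p = 1.29e-04). The groups did not overlap. In shD3#4 it had 54.7, 46.5 and 45.9 cpm against 68.3, 62.2 and 54.8, a log2 fold change of -0.33 ± 0.08 (edgeR's adjusted p = 1.53e-03), below the fold threshold. In shD3#1 it had 54.4, 53.9 and 66.9 cpm against 52.5, 54.1 and 58.6, and the groups overlapped (0.08 ± 0.08, edgeR's adjusted p = 0.463). The sign of that value rested on shD3#1 replicate 3, without which it was -0.03. Its deep value was 0.04 ± 0.05 (edgeR's adjusted p = 0.58) and, without deep shD3#1 replicate 1, -0.0038.

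The atypical E2F8 (chr11:19224063-19241620, minus strand) had the lowest value of any of the 10 genes, in siTHUMPD3. It had 10.2 and 9.91 cpm in siControl and 0.472, 0.571 and 1.05 cpm in siTHUMPD3, from 10, 10 and 21 counts. In sh1Control it had 15.2, 15.9 and 16.1 cpm against 9.17, 10.2 and 9.78 in shD3#1. In sh4Control it had 16.4, 15.3 and 14.6 cpm against 10.4, 10.2 and 9.18 in shD3#4. Knockdown and control libraries did not overlap in any of the 3, and siTHUMPD3 kept 6.91% of the control mean. The log2 fold change was -3.84 ± 0.28 (SE; edgeR's adjusted p = 6.99e-05) in siTHUMPD3, -0.69 ± 0.10 (1.27e-05) in shD3#1 and -0.63 ± 0.09 (5.18e-06) in shD3#4. The call in shD3#4 was lost without shD3#4 replicate 3, where the value was -0.58. The deep log2 fold change was -0.44 ± 0.06 (edgeR's adjusted p = 2.88e-05), with 18.1, 19 and 16.6 cpm in shD3#1 below 25, 23.9 and 23.6 in the controls but short of the fold threshold. CSRP3-AS1, which lies opposite E2F8, had at most 1 count in the first set and 26 in the deep set.

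E2F7, the other atypical repressor (chr12:77021248-77065569, minus strand), was called only in shD3#1. It had 26.3, 26.5 and 25.9 cpm in sh1Control and 14.2, 15.9 and 13.2 cpm in shD3#1 (log2 fold change -0.85 ± 0.08 SE, edgeR's adjusted p = 3.60e-07). In shD3#4 it had 20.8, 19.1 and 20.8 cpm against 27.5, 23.9 and 27.1 (-0.37 ± 0.08, edgeR's adjusted p = 5.23e-04). In siTHUMPD3 it had 11.6, 12.9 and 21.4 cpm against 20.9 and 23.2. Replicates 1 and 2 were below both controls there and replicate 3 was level with them, so that the groups overlapped. The log2 fold change in siTHUMPD3 was -0.53 ± 0.25 (edgeR's adjusted p = 0.137) and, without replicate 3, -0.86 (3.40e-04), past both thresholds. The deep log2 fold change was -0.50 ± 0.05 (edgeR's adjusted p = 1.41e-06), with 21.7, 21 and 22.1 cpm in shD3#1 below 30.7, 30.2 and 30.6 in the controls.

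MYBL2, the MuvB partner of S phase and G2 (chr20:43667019-43716495, plus strand), was called lower in all 4 comparisons. It had 58.5, 56 and 65.6 cpm in sh1Control and 22.5, 23.7 and 25.1 cpm in shD3#1. In sh4Control it had 60.7, 68.4 and 57.2 cpm and in shD3#4 38.1, 41.7 and 42.3 cpm. In siControl it had 68.5 and 62 cpm and in siTHUMPD3 5.38, 5.42 and 9.26 cpm. The groups were apart each time, with 39.6%, 65.6% and 10.3% of the control mean remaining. The log2 fold changes were -1.34 ± 0.08 (SE; edgeR's adjusted p = 1.00e-09), -0.61 ± 0.07 (2.16e-07) and -3.28 ± 0.22 (4.20e-05). The shD3#4 call was lost without sh4Control replicate 2 (-0.54) and without shD3#4 replicate 1 (-0.56). At greater depth MYBL2 had 76.8, 80.3 and 74.3 cpm in the controls and 42.4, 39.1 and 48.4 cpm in shD3#1 (-0.83 ± 0.07, edgeR's adjusted p = 6.80e-08).

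FOXM1, the forkhead factor of G2 and mitotic genes (chr12:2857680-2877174, minus strand), had 67.1, 66.8 and 69.9 cpm in sh1Control and 36.8, 38.9 and 41.9 cpm in shD3#1. In sh4Control it had 65.6, 69.8 and 65.5 cpm and in shD3#4 43.2, 38.1 and 38.3 cpm. In siControl it had 63.7 and 62.8 cpm and in siTHUMPD3 5.19, 5.71 and 10.1 cpm. The siTHUMPD3 libraries were far below those of either hairpin, and the means were 57.7%, 59.5% and 11.1% of control in the order shD3#1, shD3#4 and siTHUMPD3. The log2 fold changes were -0.80 ± 0.07 (SE; edgeR's adjusted p = 7.59e-08), -0.75 ± 0.07 (2.63e-09) and -3.17 ± 0.24 (8.16e-05), with no overlap. The deep value for FOXM1 was -0.52 ± 0.05 (edgeR's adjusted p = 1.56e-07), short of the fold threshold, with 67.8, 69.8 and 72.1 cpm in shD3#1 below 97.6, 104 and 100 in the controls. FOXM1 shares 2112 bases with ITFG2 and 917 bases with RHNO1 on the opposite strand. These genes had up to 428 and 687 counts in the first set, where FOXM1 fell to 100. The strand setting of the counting was not stated, so how reads of the shared bases were counted is not known.

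LIN9, the MuvB subunit (chr1:226231149-226309869, minus strand), was called lower in siTHUMPD3 and in shD3#4. It had 26.4 and 23.6 cpm in siControl and 5.14, 6.57 and 8.07 cpm in siTHUMPD3 (log2 fold change -1.93 ± 0.18 SE, edgeR's adjusted p = 2.34e-04). In sh4Control it had 26.3, 24.8 and 21.6 cpm and in shD3#4 15.7, 16.7 and 15.2 cpm (-0.61 ± 0.09, edgeR's adjusted p = 2.55e-06). The groups did not overlap, but the shD3#4 call was lost without sh4Control replicate 1 (-0.55) and without shD3#4 replicate 3 (-0.58). In shD3#1 it had 17.7, 15.9 and 21.5 cpm against 24.9, 21.6 and 22.4, a log2 fold change of -0.35 ± 0.10 (edgeR's adjusted p = 8.45e-03) that stayed under the fold threshold. For the deep libraries LIN9 had 18.6, 18.4 and 19.2 cpm against 18.8, 17.3 and 18.9 (0.03 ± 0.06, edgeR's adjusted p = 0.707), and the value was -0.01 without deep sh1Control replicate 2. The first shD3#1 libraries thus lay below their controls and the deep ones overlapped with theirs.

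**Figure D3:**
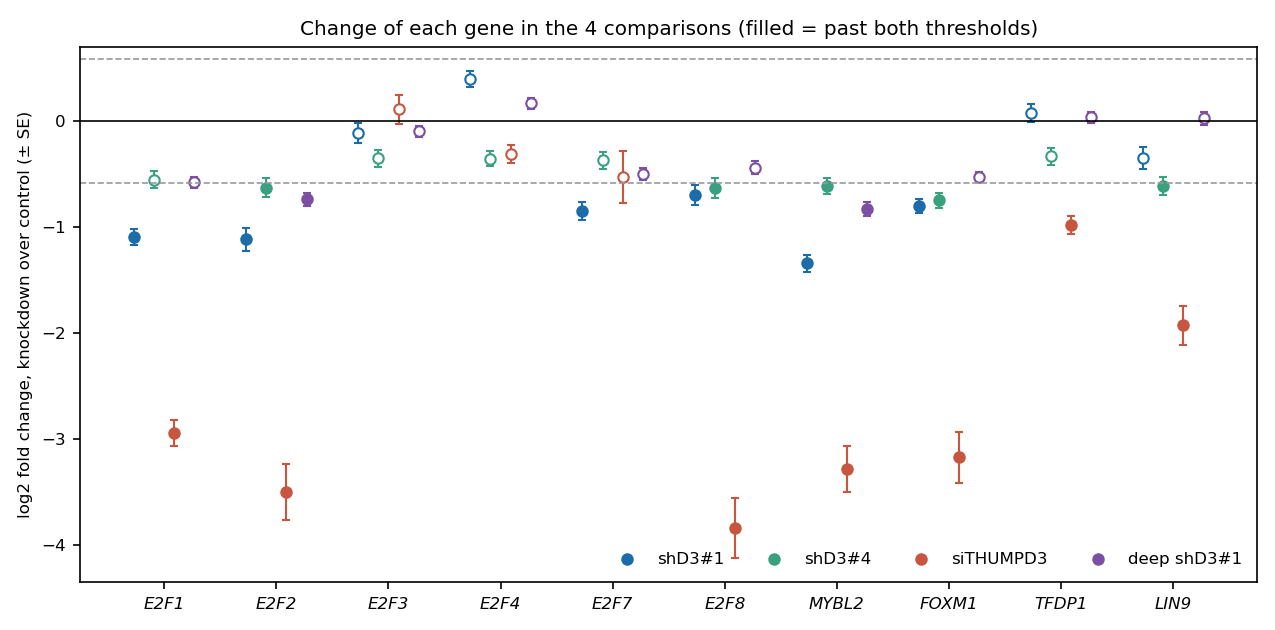
Log2 fold change of the 10 genes in the 4 comparisons (y axis, knockdown over control), with bars of 1 SE. Filled points passed both thresholds and dashed lines mark a change of 1.5-fold in either direction. The siTHUMPD3 points of E2F1, E2F2, E2F8, MYBL2 and FOXM1 lie between -2.94 and -3.84, and those of E2F3, E2F4 and E2F7 are open in that comparison.

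The spread within siTHUMPD3 was shared by several of the genes. Replicate 3 was the highest of the 3 libraries for 9 of the 10 genes, the exception being E2F2. Its level over the mean of replicates 1 and 2 was 2.01 for E2F8, 1.86 for FOXM1, 1.74 for E2F7 and 1.71 for MYBL2, and 1.04 to 1.38 for E2F1, E2F3, E2F4, TFDP1 and LIN9. This was the library that stood apart over all genes. Without it, 8 genes were called lower, E2F7 being added, and the log2 fold changes of E2F8, MYBL2 and FOXM1 were -4.28, -3.60 and -3.55.

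Per kilobase of exon, MYBL2 had the highest control level of the 10 genes in each experiment (21.6 ± 1.79, 22.4 ± 2.07, 23.5 ± 1.65 and 27.8 ± 1.1 cpm per kb in sh1Control, sh4Control, siControl and the deep controls, SD with n = 3, 3, 2 and 3). In sh1Control and sh4Control, E2F1, TFDP1, FOXM1 and E2F4 followed at 13.5 to 16.5 cpm per kb, and neighbours in that order overlapped between libraries. LIN9 had 5.17 ± 0.39 cpm per kb in sh1Control, and E2F3, E2F7 and E2F8 3.8 to 4.32. E2F2 was lowest in sh1Control (2.97 ± 0.226), sh4Control (3.08 ± 0.108) and the deep controls (3.97 ± 0.108), where it overlapped with LIN9, and E2F8 was lowest in siControl (2.44 ± 0.0571). In siTHUMPD3 the order changed: E2F4 (13 ± 0.561 cpm per kb), TFDP1 (8.51 ± 0.23) and E2F3 (3.68 ± 0.377) were the 3 highest, and MYBL2 had 2.41 ± 0.803. The deep table listed E2F3 at 8.88 ± 0.375 cpm per kb in its controls. The tables were counted and normalised separately, with exon lengths from GENCODE for both, so levels were not compared between them.

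The difference between the effects of the hairpins was tested in 1 model of the 17 first libraries, where a gene was called at edgeR's adjusted p under 0.05. Of the 10 genes, 3 had an effect further below 0 in shD3#1 than in shD3#4 (19.8% of all 18672 genes tested) and 2 had a difference above 0 (19.6%). These shares are not far from those of all genes. MYBL2 differed by -0.73 ± 0.17 (SE; edgeR's adjusted p = 1.49e-03), E2F1 by -0.55 ± 0.13 (1.52e-03) and E2F2 by -0.49 ± 0.18 (0.0356). E2F4 differed by 0.75 ± 0.10 (edgeR's adjusted p = 8.56e-06) and TFDP1 by 0.41 ± 0.13 (0.017). For THUMPD3 itself the difference was 0.70 ± 0.10 (edgeR's adjusted p = 1.17e-05), since shD3#4 lowered it further. The deep shD3#1 libraries were not in this model, and there the effects were -0.83 for MYBL2, -0.57 for E2F1 and -0.74 for E2F2, against -0.61, -0.55 and -0.63 in shD3#4. The E2F2 difference was not called by DESeq2 (adjusted p = 0.0512) and was lost in 8 leave-one-out fits (-0.44 to -0.48), which were those without sh1Control replicate 2 or 3, shD3#1 replicate 1 or 2, sh4Control replicate 1 or 3, and shD3#4 replicate 1 or 3. The TFDP1 difference was not called without shD3#1 replicate 3 (0.31), sh4Control replicate 1 (0.33) or shD3#4 replicate 3 (0.36). For FOXM1 (-0.05 ± 0.17, edgeR's adjusted p = 0.831) and E2F8 (-0.06 ± 0.16, 0.792) the estimate was near 0 with an SE that leaves room for a difference of that size in either direction. E2F7 differed by -0.48 ± 0.21 (edgeR's adjusted p = 0.0692) and was called without siTHUMPD3 replicate 1 or 3 (both -0.48) and without the filter on low counts (-0.49).

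The siRNA effect was compared with the mean of the shRNA effects in the same model. Of the 10 genes, 8 had a difference called below 0, where 14.6% of all genes did. E2F8 differed by -3.16 ± 0.21 (SE; edgeR's adjusted p = 3.16e-10), E2F2 by -2.61 ± 0.20 (2.63e-09), FOXM1 by -2.39 ± 0.17 (1.28e-09), MYBL2 by -2.29 ± 0.17 (1.50e-09) and E2F1 by -2.11 ± 0.13 (1.34e-10). LIN9 differed by -1.44 ± 0.17 (edgeR's adjusted p = 1.53e-06), TFDP1 by -0.84 ± 0.12 (2.38e-05) and E2F4 by -0.32 ± 0.10 (0.0172). The E2F4 difference was not called without siControl replicate 1 (-0.28). THUMPD3 differed by -1.21 ± 0.10 (edgeR's adjusted p = 3.98e-09), less than 6 of the 10 genes. A difference above 0 was called for 0 of the 10 genes by edgeR and by DESeq2, where edgeR called 14.5% of all genes. At an unadjusted p under 0.05 there was 1, E2F3 (0.36 ± 0.14, edgeR's adjusted p = 0.0521). It was called without siControl replicate 2 (0.46), siTHUMPD3 replicate 1 (0.41), shD3#1 replicate 2 (0.42) or sh4Control replicate 3 (0.38). For E2F7 the difference was 0.10 ± 0.20 (edgeR's adjusted p = 0.753) and changed sign without siTHUMPD3 replicate 3 (-0.24).

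**Figure D4:**
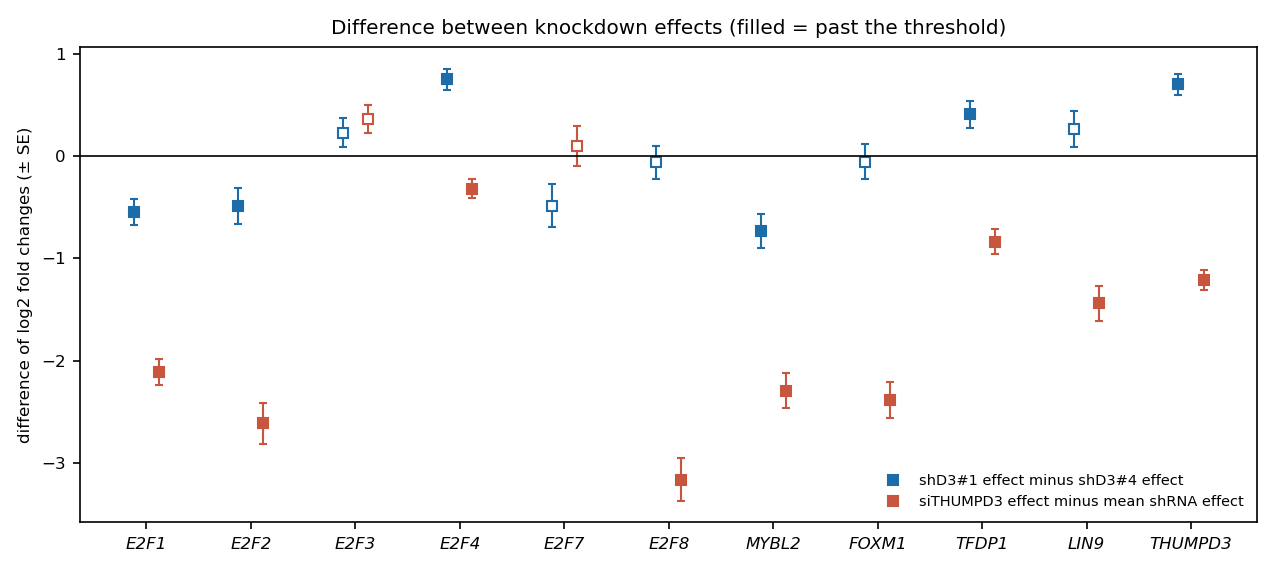
Difference between knockdown effects for the 10 genes and THUMPD3, as a difference of log2 fold changes with bars of 1 SE (y axis). Blue points give the shD3#1 effect minus the shD3#4 effect and red points the siTHUMPD3 effect minus the mean of the shRNA effects, and filled points passed the threshold. Red points lie below 0 for 8 of the 10 genes, and blue points lie on both sides of 0.

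The list of 12 partners of these factors held E2F5, E2F6, the second DP gene TFDP2, the retinoblastoma family (RB1, RBL1 and RBL2), the MuvB subunits LIN37, LIN52, LIN54 and RBBP4, and the MYBL2 relatives MYB and MYBL1. In shD3#1, 3 of 12 were called lower and 1 higher, with a median log2 fold change of -0.27, where 14.6% of all genes were called lower and 14.5% higher. RBL1 (p107), which restrains E2F4 targets in cycling cells, fell from 76.1 ± 3.67 to 48 ± 1.75 cpm (SD, n = 3; log2 fold change -0.67, edgeR's adjusted p = 4.23e-07), and LIN37 rose from 1.72 ± 0.255 to 2.8 ± 0.107 cpm (0.70, 7.59e-03). LIN37 was not called by DESeq2, 2 of the 12 were called higher without shD3#1 replicate 2, and without shD3#1 replicate 1 only 1 of the 12 was called lower. In shD3#4, MYBL1 alone was called, where 4.49% of all genes were called lower and 8% higher. Its level fell from 27.4 ± 2.98 to 16.2 ± 1.09 cpm (SD, n = 3, log2 fold change -0.76, edgeR's adjusted p = 1.05e-07). In siTHUMPD3, 4 were called lower, where 9.42% of all genes were, and the median was -0.46. MYB had the lowest value, at 0.173 ± 0.0481 cpm (SD, n = 3) against 1.03 ± 0.473 (n = 2), with a log2 fold change of -2.57 (edgeR's adjusted p = 7.02e-03). It passed the filter on low counts there through the siControl libraries, so its call is no evidence of its own. The others called, named here after their values were seen, were RBL1 (-2.34), LIN52 (-1.04) and LIN54 (-0.83). LIN37 had the highest value in shD3#4 (0.32, edgeR's adjusted p = 0.299) and in siTHUMPD3 (0.27, 0.421). In deep shD3#1, edgeR and DESeq2 each called 0 of the 12, where edgeR called 14.1% of all genes lower and 15% higher. At an unadjusted p under 0.05, 5 were lower and 2 higher, and the range was from -0.35 for TFDP2 to 0.48 for E2F5.

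Among 15 genes for G1 cyclins, cyclin-dependent kinases (CDKs) and CDK inhibitors, which set how far the retinoblastoma proteins are phosphorylated, calls went in both directions. CDKN2A and CDKN2B had 0 counts in every first library. In shD3#1, 3 of the 12 tested were called lower and 3 higher (median -0.19), against 14.6% and 14.5% of all genes. CDKN1B (p27) was lowest, at 31 ± 0.395 cpm against 57.5 ± 3.52 (SD, n = 3; log2 fold change -0.89, edgeR's adjusted p = 2.53e-08), and CDKN1C (p57) highest, at 7.92 ± 2.01 cpm against 0.9 ± 0.283 (3.19, 1.67e-08). CCND1 (0.79) and the p53 target CDKN1A (p21; 2.07) were also called higher, and CCND3 (-0.65) and CDKN2C (-0.66) lower, all 4 named after their values were seen. In shD3#4, CDK6 alone was called lower, where 4.49% of all genes were. It fell from 180 ± 5.99 to 108 ± 6.49 cpm (SD, n = 3, log2 fold change -0.74, edgeR's adjusted p = 1.27e-09). The list had 0 called higher by edgeR and by DESeq2, where edgeR called 8% of all genes, and 3 were higher at an unadjusted p under 0.05. The highest there was CDKN2D (0.41, edgeR's adjusted p = 0.0736).

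In siTHUMPD3, 3 of the 12 tested besides CCND2 were called lower and 4 higher (median -0.26), against 9.42% and 12.5% of all genes. CCNE2 (cyclin E2), an E2F target, fell from 11.5 ± 0.937 (SD, n = 2) to 2.48 ± 1.29 cpm (n = 3; log2 fold change -2.21, edgeR's adjusted p = 2.20e-03). CCND2 (cyclin D2), which passed the filter on low counts in this comparison alone and through the siTHUMPD3 libraries, so that its call is no evidence of its own, had 1 count in both siControl libraries together and 67 in the siTHUMPD3 libraries, a depth-corrected ratio of 35.1 (exact 95% interval 6.09 to 1410, for counting error only). CDKN1A (3.52), CDKN1C (1.15), CCND1 (0.98) and CDK6 (0.68) were also called higher and CDK2 (-2.06) and CDKN2C (-2.02) lower, named after their values were seen. With CCND2 the count higher was 5, and it was 3 without siControl replicate 1, siControl replicate 2 or siTHUMPD3 replicate 3. CDK6 was thus called lower in shD3#4 and higher in siTHUMPD3, and that difference was not tested. In deep shD3#1, CCND1 (0.77), CDKN1A (1.24) and CDKN1C (2.35) were called higher and 0 lower by edgeR and by DESeq2, with 4 lower at an unadjusted p under 0.05. CDKN1C was scarce in this comparison, with at most 48 counts in a library. Its level was 1.19 ± 0.753 cpm after knockdown against 0.22 ± 0.0939 without it (SD, n = 3). The control libraries alone were too low for the filter on low counts. CDKN1C passed with the help of the knockdown libraries, so its call is no evidence of its own. Of all genes, edgeR called 15% higher and 14.1% lower in that comparison. CCND1 and CDKN1A are again named after their values were seen. CCND3 was lowest there (-0.50, edgeR's adjusted p = 1.33e-06). The deep median of 0.02 changed sign with other filters on low counts and without deep shD3#1 replicate 2 (-0.0049).

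Of 32 genes with E2F sites that act at the start of S phase, 19 were called lower in shD3#1, 9 in shD3#4, 32 in siTHUMPD3 and 5 in deep shD3#1, with medians of -0.65, -0.48, -2.65 and -0.26. The shares of all genes called lower were 14.6%, 4.49%, 9.42% and 14.1%, so that the count in deep shD3#1 was near that of all genes. By edgeR and by DESeq2, 0 were called higher in any comparison, and at an unadjusted p under 0.05 there were 0, 0, 0 and 3. CLSPN (claspin), a replication checkpoint protein, was lowest in shD3#1, at 22.7 ± 0.817 cpm against 64.1 ± 3.82 (SD, n = 3; log2 fold change -1.50, edgeR's adjusted p = 1.19e-10), and in deep shD3#1 (-0.99, 5.60e-10). UHRF1, which keeps DNA methylation through replication, was lowest in shD3#4 (-0.95, edgeR's adjusted p = 4.55e-11). MCM10, a replication factor that acts in activation of the helicase, was lowest in siTHUMPD3, at 6.21 ± 2.35 (SD, n = 3) against 85.1 ± 6.05 cpm (n = 2; -3.77, edgeR's adjusted p = 3.47e-05), and TYMS (thymidylate synthase) fell least there (-0.79, 1.12e-03). The highest values elsewhere were those of CDC25A in shD3#1 (0.08, edgeR's adjusted p = 0.388), HELLS in shD3#4 (-0.16, 0.054) and SLBP in deep shD3#1 (0.20, 4.74e-03).

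Of 35 genes of G2 and mitosis under MYBL2-MuvB and FOXM1, 33 were called lower in shD3#1, 14 in shD3#4, 35 in siTHUMPD3 and 12 in deep shD3#1. The medians were -1.10, -0.54, -3.41 and -0.53, and the shares of all genes called lower were those given for the G1/S list. In this list NUSAP1 and PRC1, named after their values were seen, stood out between tables. NUSAP1 had 0.974 cpm and PRC1 4.73 cpm in sh1Control but 97 and 153 cpm in the deep controls, so the tables did not count these genes alike. In siTHUMPD3, NUSAP1 had 0.213 ± 0.176 cpm (SD, n = 3) against 1.11 ± 0.2 (n = 2). It passed the filter on low counts there through the siControl libraries, so its call is no evidence of its own. By edgeR and by DESeq2, 0 were called higher in any comparison, and the count at an unadjusted p under 0.05 was also 0. CENPF, a kinetochore protein, was lowest in shD3#1, at 213 ± 3.36 cpm against 696 ± 56.7 (SD, n = 3; log2 fold change -1.71, edgeR's adjusted p = 1.11e-11). CDC20, the activator of the anaphase-promoting complex, was lowest in shD3#4 (-1.09, edgeR's adjusted p = 6.86e-12), and AURKB, the chromosomal passenger kinase, in deep shD3#1 (-1.03, 5.96e-10). DLGAP5, a spindle protein, was lowest in siTHUMPD3, at 6.75 ± 2.01 (SD, n = 3) against 106 ± 9.4 cpm (n = 2; -3.97, edgeR's adjusted p = 1.29e-05). CDC25B, a CDK1-activating phosphatase, changed least in siTHUMPD3 (-0.78, edgeR's adjusted p = 2.90e-03) and in shD3#4 (-0.11, 0.163), CKS2 in shD3#1 (-0.27, 0.0447) and CDK1 in deep shD3#1 (-0.08, 0.154). These lists were chosen for what their genes are known to do, with earlier results of these libraries known.

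**Figure D5:**
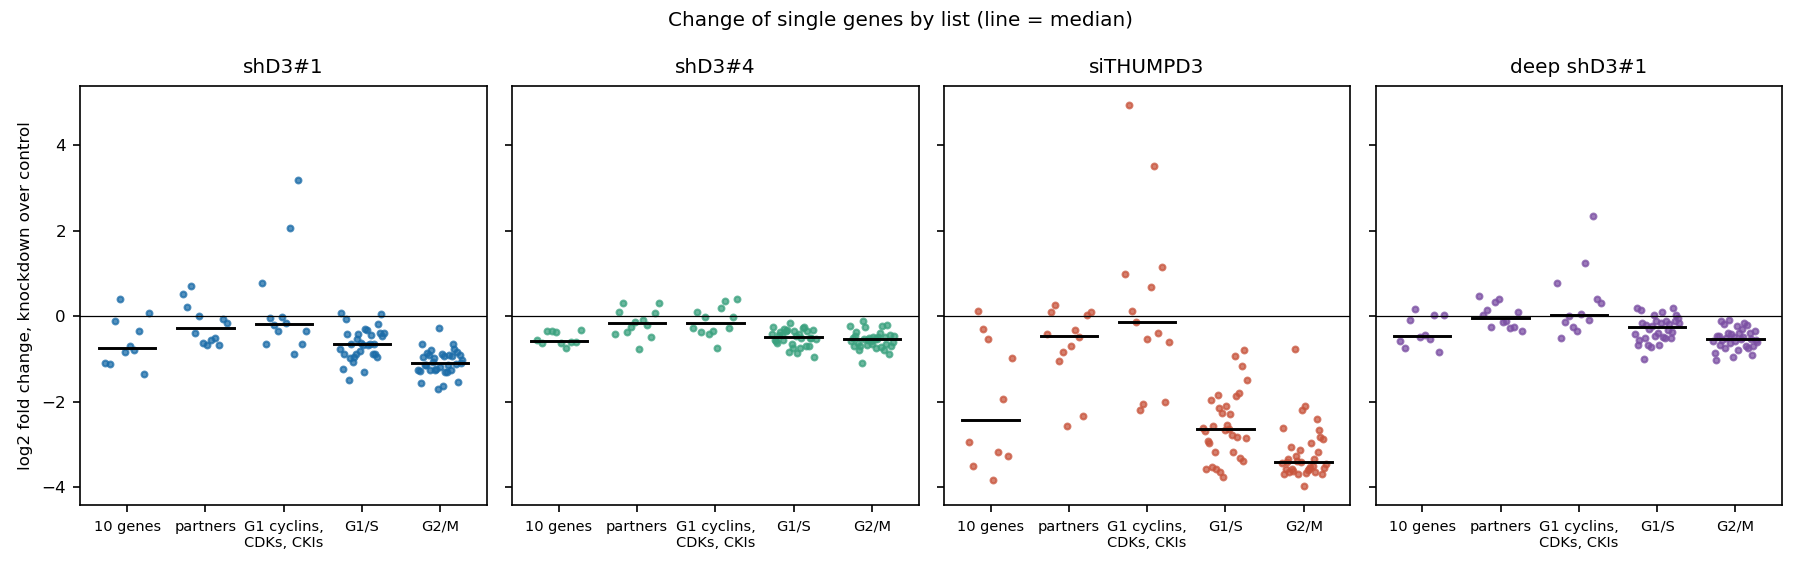
Log2 fold change of single genes (points, y axis) in the 10 genes and the 4 lists, with a line at the median of each and a panel for each comparison. In siTHUMPD3 all 32 G1/S genes and all 35 G2/M genes lie below 0, while the G1 cyclins, CDKs and CDK inhibitors (CKIs) spread from -2.21 to 3.52 without CCND2, the topmost point, whose height is a fitted value over 1 control count.

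The genes with the most similar profiles were sought among 14433 genes, as those with the smallest root mean square difference in log2 cpm relative to their own controls over the 17 first libraries. Replicate noise and depth are shared by all genes of a library, and the values are a description. For FOXM1 the nearest were the mitotic kinase PLK1 (0.113), PLK4 (0.121) and ARHGAP11A (0.124), against a median of 1.46 over all genes. For E2F8 they were MCM10 (0.103), TROAP (0.113) and HMMR (0.132), with a median of 1.64. For MYBL2 they were the helicase BLM (0.124), the condensin gene NCAPH (0.127) and the histone chaperone ASF1B (0.138), with a median of 1.54. For E2F1 they were the histone gene H2BC15 (0.139), SPAG5 (0.143) and FANCD2 (0.146), and for E2F2 PIMREG (0.225), the centromeric histone gene CENPA (0.228) and OIP5 (0.236). LIN9 was nearest to the checkpoint kinase gene CHEK1 (0.121), H2AZ1 (0.134) and RFC2 (0.136), with a median of 0.91. PLK1, CENPA and HMMR were also on the G2/M list and MCM10 and CHEK1 on the G1/S list. The genes that moved less had other neighbours. E2F7 was nearest to EFHD2 (0.117), SLC7A1 (0.144) and KLHL17 (0.158), E2F3 to JADE3 (0.103), SRP68 (0.105) and RAC1 (0.106), E2F4 to EIF3I (0.0522), IMP4 (0.0633) and ADPGK (0.0642), and TFDP1 to RAN (0.0775), NUP35 (0.0915) and RABL6 (0.0973). The medians over all genes were lower for these 4 genes, at 0.568, 0.369, 0.411 and 0.534.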

How the data were processed

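RNA was depleted of ribosomal RNA and made into directional libraries. Reads were processed with Trimmomatic 0.40 and STAR 2.7.10a on GRCh38.p14, per the labels and the methods. The methods name the RefSeq annotation, but the first table lists Ensembl identifiers and the deep table symbols, and some genes differ widely in level between them (CD68 had at most 4 counts in the first set and at least 2462 in the deep set), so the annotation or strand setting may differ between the tables. The deposited values are counts, in reads per gene, which the authors left without normalisation. The strand setting was not given in the sources used here. For every comparison the whole table was fitted by edgeR 4.0.16, under R 4.3.3, after filterByExpr and TMM scaling. The quasi-likelihood test was used, with Benjamini-Hochberg adjustment. Differences between effects came from 1 model of 17 libraries with 1 mean per group. Levels are TMM cpm, except those of the cell type markers, which are cpm by library total alone. The profile search took genes averaging at least 1 cpm, on the log2 scale after adding a prior count of 2. Replicates were not paired. Alternatives were DESeq2 1.42.0, its size factors in edgeR, no filter, at least 10 counts in every library, no fold threshold, 1 fit of all 17 libraries, the replicate number as a block and each replicate left out. The edgeR fit of each comparison and the difference between hairpins were run on simulated data with known fold changes, and the siRNA difference was not. Named genes were the 10 genes, THUMPD3, the lowest and highest gene of each list per comparison, the 3 nearest profiles and overlapping genes. Other list genes, and the members of small counts, were named after their values were seen, as the text says. The members and lists were chosen with earlier results of these data known. GENCODE 44 gave positions and exon lengths. The design states 3 replicates per condition, of which 2 siControl libraries were analysed here. The totals of 9854294 to 59974740 counts set the precision, and a gene with 10 counts is measured far less precisely than MYBL2, which had at least 95.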

Additional observations from a re-analysis of the deposited data

Results flagged for a closer look

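Effects that differed between knockdowns were singled out where the difference itself passed edgeR's adjusted p threshold of 0.05 in the model of the 17 first libraries. Between the hairpins (shD3#1 effect minus shD3#4 effect, log2), the difference was -0.55 for E2F1, -0.49 for E2F2, -0.73 for MYBL2, 0.75 for E2F4, 0.41 for TFDP1 and 0.70 for THUMPD3. Between siTHUMPD3 and the mean of the hairpins it was -2.11 for E2F1, -2.61 for E2F2, -0.32 for E2F4, -3.16 for E2F8, -2.29 for MYBL2, -2.39 for FOXM1, -0.84 for TFDP1, -1.44 for LIN9 and -1.21 for THUMPD3. E2F4 was also higher than control in every shD3#1 library and lower in every shD3#4 library. The groups held 2 or 3 libraries, too few for a formal search for a single library far from the others in a group. The comparison of replicate pairs given above is a description.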

How the results depend on the processing

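Of 1640 results recomputed under an alternative, 1576 were scored as unchanged. For a single gene this meant the same direction and side of the threshold. A count of genes could shift and still be scored so. With 1 library left out, the genes called lower in shD3#4 ranged from 4 to 6, and no such fit was scored as changed. Without the fold threshold the genes called were 10 lower in shD3#4, 6 lower and 1 higher in deep shD3#1, and 1 higher in shD3#1. With at least 10 counts in every library, 1 gene (E2F3, 0.38) had a siRNA effect above the shRNA mean.

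Leaving out 1 library each gave 6 genes called lower in shD3#1, 4 to 6 in shD3#4, 7 to 8 in siTHUMPD3 and 2 to 3 in deep shD3#1, and 0 higher in each. For the difference between hairpins it gave 2 to 4 genes below 0 and 1 to 2 above, and for siRNA against shRNA 7 to 8 below and 0 to 1 above. The sign changed, within these ranges, for TFDP1 in shD3#1 (-0.025 to 0.134, lowest without shD3#1 replicate 3), TFDP1 in deep shD3#1 (-0.0038 to 0.073, lowest without its replicate 1), E2F3 in siTHUMPD3 (-0.010 to 0.221, lowest without siControl replicate 1), LIN9 in deep shD3#1 (-0.012 to 0.051, lowest without deep sh1Control replicate 2), the FOXM1 hairpin difference (-0.097 to 0.0082, highest without shD3#4 replicate 1) and the E2F7 difference between siRNA and shRNA (-0.24 to 0.260, lowest without siTHUMPD3 replicate 3). The deep median of the G1 cyclin list was -0.028 with no filter, -0.0088 with at least 10 counts and -0.0049 to 0.096 with 1 library left out (lowest without deep shD3#1 replicate 2).

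Same-numbered libraries did not deviate together in the shRNA experiments (correlations of -0.078 to 0.074), and not every library there correlated best with its own number. The siRNA pairs gave 0.142 and -0.108. They cannot decide on pairing, since the deviations of 2 siControl libraries from their mean are exact opposites. With the replicate number as a block, 116 of 120 results were scored as unchanged, and these include counts of genes that shifted. The block gave 8 genes called lower in siTHUMPD3 (E2F7 added, -0.85), 4 genes below 0 for the hairpins (E2F7 added, -0.49), an E2F7 difference of -0.22 between siRNA and shRNA, and 3 of the G1 cyclin list higher in siTHUMPD3. No cause of these changes was tested. Depth limits E2F8 and E2F2 in siTHUMPD3, with 10 to 41 counts.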
